A study of Caenorhabditis elegans with 15 samples.

Results

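Cuticle collagens are the proteins that the nematode epidermis secretes to build its outer skin. The family was taken as all genes of the class col together with the collagen genes named after the body shapes of their mutants, namely Dumpy (dpy), Roller (rol), Squat (sqt), Blister (bli), Long (lon) and Ram (ram). Among its 19264 gene probes the array carried 142 for genes of the class col and 19 for collagens that bear one of the other names. A further 17 collagen genes of the RefSeq gene table for WBcel235 had no probe matched here. For 62 of the members the spots were readable often enough to compare the sediments, and the remaining 99 were left out.

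The transcripts came from Caenorhabditis elegans of the wild-type strain N2 (Bristol) and were taken from whole animals. Age-synchronized worms were kept for 48 h in sediment from the Danube, the Elbe or the Rhine, with 0.5 g of sediment and 20000 worms in each of 24 vials, and with E. coli as food in all 3 treatments. Each sediment had 5 arrays, and 10 µg of total RNA was labelled for each array. On every array the sediment sample carried the dye Cy5 and a universal reference carried Cy3, so that values are log2 ratios of sample over reference, and 0 stands for equal signal. By the study's methods, this reference pooled the RNA of every sediment treatment with that of a laboratory control. The study treats the Danube sediment as the least polluted and uses it as the baseline, and its purpose was to see whether worms in sediments of differing pollution differ in transcripts. The labels call the 5 samples of a sediment biological replicates, but the study describes 1 sampling site for each river, with subsamples combined. The p-values thus measure the spread between repeated exposures and not between places in a river. The labels give the age as L4 and young adult, counted as 48 h from the staged L1, while the protocols have the worms at that stage when the 48 h of exposure began and the study's methods call the harvested worms young adults, so that the age at harvest is not settled. No laboratory control array is among the 15, and in whole animals fewer cells of a type and less RNA per cell cannot be told apart.

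A collagen chain is made in the epidermis, hydroxylated on its prolines, trimmed by proteases, assembled into triple helices and cross-linked in the cuticle. Each larval stage and the adult builds a new cuticle at a molt, and collagen genes are switched on in successive waves around each molt. Several collagens are confined to one structure or stage, such as the furrow collagens in the circumferential furrows, the bli collagens in the struts of the adult cuticle, and col-19, an adult collagen widely used as a marker of the larval-to-adult switch.

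The readable part of the family was uneven between the sediments. A spot counted as readable where its confidence grade was above the lowest, and a probe was used where 3 or more of the 5 arrays had such a spot in every sediment. Collagens reached this on Danube arrays for 74 of these genes, on Elbe arrays for 100 and on Rhine arrays for 88. As shares these are 46%, 62.1% and 54.7%, beside 38.6%, 42.7% and 45.7% of all gene probes. The number of readable collagens on single arrays ran from 70 to 98 for Danube, from 88 to 108 for Elbe and from 90 to 106 for Rhine, so that the ranges of Danube and the other sediments overlapped. In all, 38.5% of the collagens were in use, against 28% of all gene probes, and 31 collagens were readable on all 15 arrays.

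**Figure D1:**
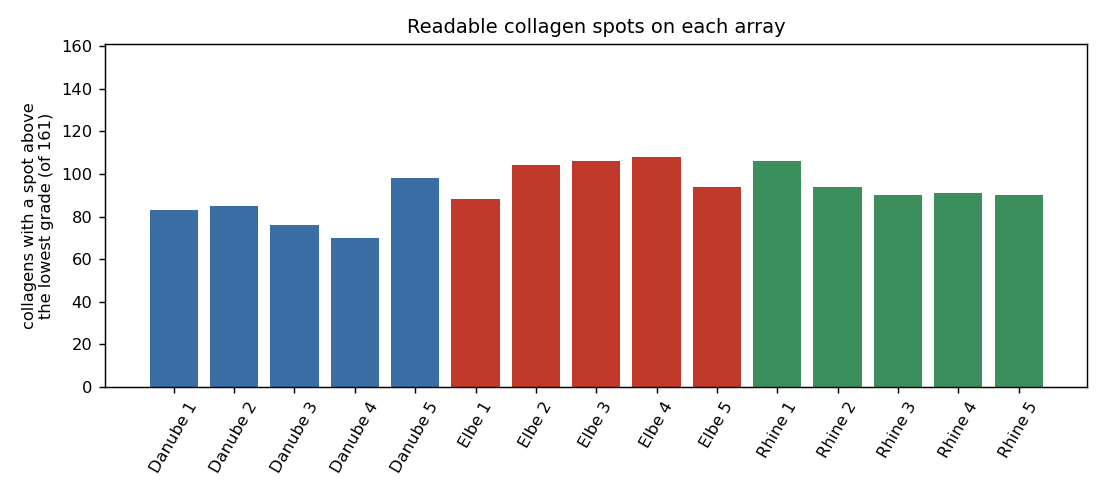
Bars give, for each of the 15 arrays (x axis, sediment and replicate number), the number of the 142 col and 19 other collagen genes with a spot above the lowest grade (y axis). Danube arrays lie between 70 and 98, Elbe arrays between 88 and 108 and Rhine arrays between 90 and 106.

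The 99 collagens left out include all 6 furrow collagens, dpy-2, dpy-3, dpy-7, dpy-8, dpy-9 and dpy-10, whose loss is known to switch on epidermal stress and immune genes. They also include dpy-4, dpy-5, rol-6, sqt-1, lon-3 and bli-1. Of the furrow collagens, dpy-10 was readable on 1 Danube, 4 Elbe and 5 Rhine arrays. By contrast dpy-7 was readable on 4 Danube, 4 Elbe and 2 Rhine arrays, while dpy-2 was readable on 1 array of the 15. No statement on furrow collagens as a group can therefore be made from these arrays. Of the left-out collagens, 47 missed the limit in all 3 sediments, or 29.2% of the family beside 40.9% of all probes. Another 15 missed it in Danube alone, or 9.32% of the family beside 5.39% of all probes. Those 15 are mainly col genes, with dpy-10 among them. The filter thus left out collagens that were dim in Danube worms only, and none of these enters the counts that follow.

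In worms from Elbe sediment the collagens in use lay mostly above their Danube values. The log2 fold change against Danube was above 0 for 45 of the 62 and below 0 for 17, so that 72.6% lay above 0 beside 57.1% of all 5398 probes in use. The median was 0.31 beside 0.07 for all probes. The study's methods set thresholds of 1.4 for a higher and 0.7 for a lower fold together with an unadjusted p under 0.05, and 9 collagens passed them, beside 6.15% of all probes. All 9 were higher in Elbe, which is 14.5% of the collagens, and by the same rule 4.24% of all probes were higher and 1.91% lower. Elbe replicate 3 weighed on this count, for without it 4 collagens passed, or 6.45% beside 5.52% of all probes. None of the 62 passed an adjusted p of 0.05 by limma with Benjamini-Hochberg adjustment over all probes, where 0.0185% of all probes did. The lowest adjusted p of a collagen was 0.523, and 9 of the 62 had an unadjusted p under 0.05.

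In worms from Rhine sediment the log2 fold change against Danube was above 0 for 48 of the 62 collagens and below 0 for 14, or above 0 for 77.4% beside 69.9% of all probes. The median was 0.43, beside 0.24 for all probes. Here 14 collagens passed the fold and p thresholds, beside 12.7% of all probes. All of them were higher in Rhine, which is 22.6% of the collagens, and of all probes 11.3% were higher and 1.41% lower. This direction was not seen in the value table that the authors deposited, which follows the Cy5 signal and does not divide out the reference. There 5 collagens were past the thresholds as higher and 6 as lower in Rhine, or 7.19% of the 153 collagens matched beside 7.24% of all probes, and among the 59 matched collagens in use 1 was higher and 3 were lower. By limma's adjusted p none of the 62 passed, nor did any other probe (0%), and the lowest adjusted p of a collagen was 0.34. Both comparisons used the same 5 Danube arrays, so that a low or a high Danube array moves both.

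**Figure D2:**
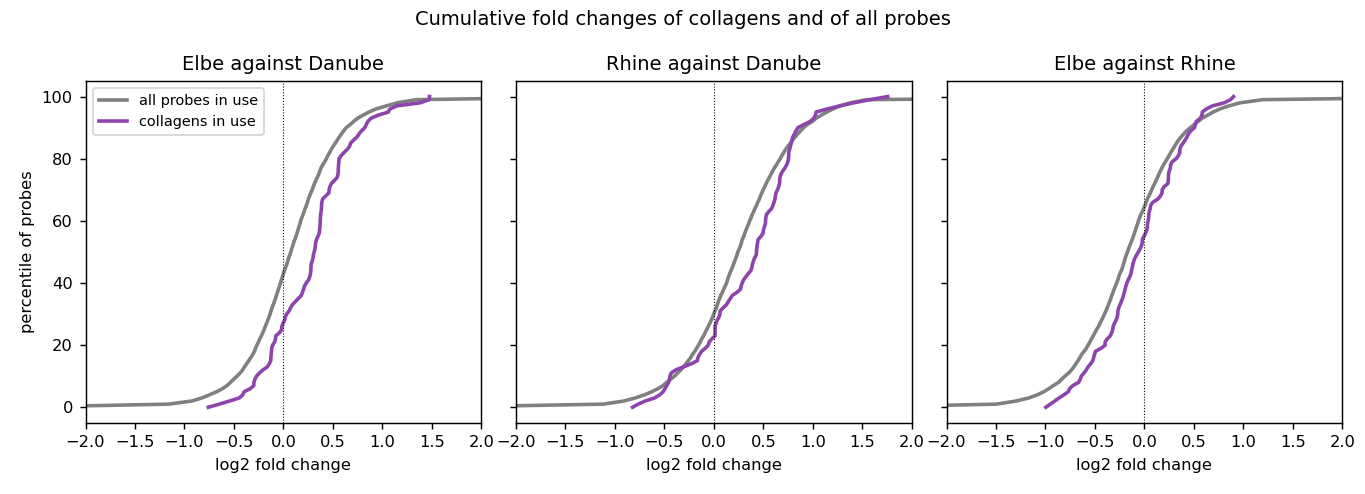
Each panel shows for 1 comparison the log2 fold change (x axis) against the percentile of probes (y axis), in purple for the 62 collagens in use and in grey for all 5398 probes in use. The purple curve lies to the right of the grey one at its middle, with medians of 0.31 and 0.07 for Elbe against Danube, 0.43 and 0.24 for Rhine against Danube and -0.06 and -0.17 for Elbe against Rhine.

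The gap to Danube was smaller once the image numbers in the file headers were taken into account. These numbers fall into 2 ranges, and the headers do not say whether they stand for an order of scans or slides. The first range goes with Danube replicates 1 to 4 and the second range with Danube replicate 5 and all Elbe and Rhine arrays. With the image-number range as a block, which sets the Elbe and Rhine arrays against Danube replicate 5, 2 collagens passed the thresholds in the Elbe comparison and 2 in the Rhine comparison, or 3.23% each, beside 1.82% and 2.2% of all probes. The medians then were 0.11 beside -0.01 for all probes in the Elbe comparison, and 0.17 beside 0.17 in the Rhine comparison. As the second range holds a single Danube array, image-number range and sediment cannot be told apart in the comparisons with Danube beyond that 1 array. The comparison of Elbe with Rhine lies wholly in the second range.

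Taken array by array, the median collagen lay below the median of all probes on each of the 5 Danube arrays, by 0.06 to 0.21. On Danube replicate 2 the collagen median was -0.46, the lowest of the 15 arrays, and all probes on that array had a median of -0.25. On Elbe arrays the gap between collagens and all probes ran from -0.07 to 0.21, with replicate 2 the one array below 0. On Rhine arrays it ran from -0.07 to 0.16, with replicates 4 and 5 below 0. Danube replicate 2 and Rhine replicate 1 had the widest spread of log2 ratios over all probes, with SDs of 1.11 and 1.16 beside 0.55 to 0.93 on the others. Without both arrays the collagen median was 0.19 for Elbe and 0.17 for Rhine against Danube, beside 0 and 0.14 for all probes.

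**Figure D3:**
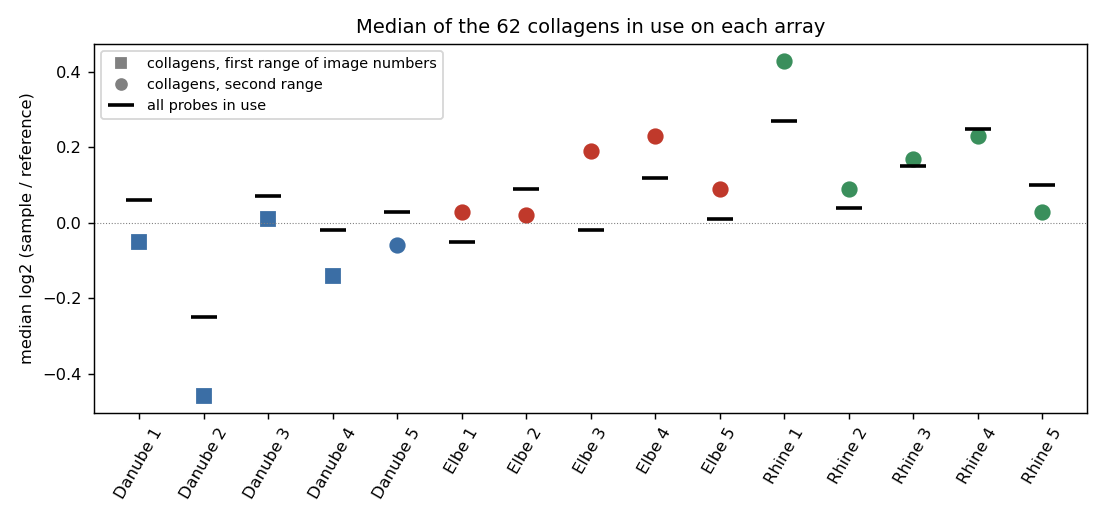
Points give the median log2 ratio of sample over reference (y axis) of the 62 collagens in use on each array (x axis), squares for the first range of image numbers and circles for the second, and black dashes give the median of all probes in use. All 5 Danube points lie below their dash, by 0.06 to 0.21.

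The gap between the collagens and all probes was also followed through other ways of processing. When the arrays were only centred on their medians, without loess, the median of all probes moved to 0.28 for Elbe and 0.79 for Rhine against Danube, and that of the collagens to 0.59 and 0.92. Relative to all probes, the collagen median against Danube was higher by 0.24 for Elbe and by 0.19 for Rhine as reported. Over 30 other settings this difference ran from 0.12 to 0.31 for Elbe, and for Rhine from 0, with the image-number range as a block, to 0.32. Not all of the 30 could move it. Leaving out an array of the sediment not compared, fitting only the 2 groups compared and taking the replicate number as a block left both medians unchanged. In the authors' value table the collagen median for Rhine against Danube was 0.02.

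**Figure D4:**
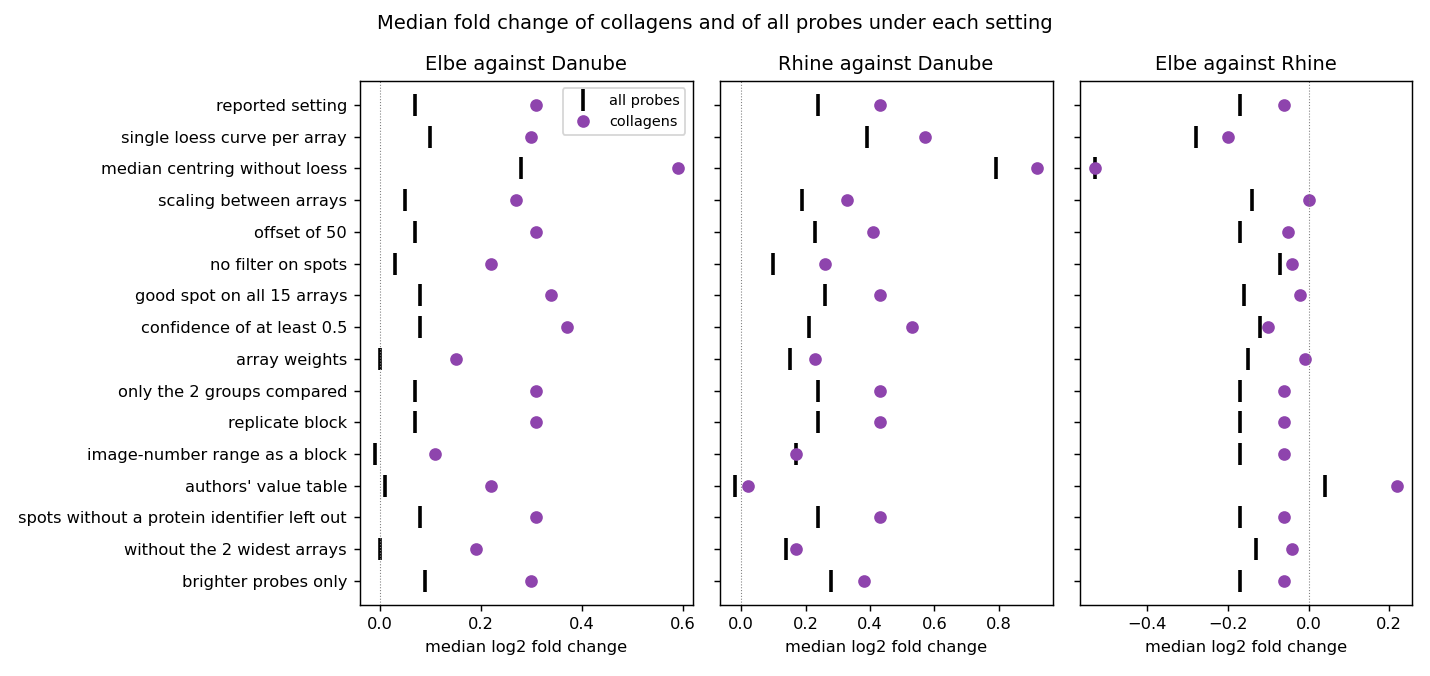
For each comparison (panel) and each way of processing (rows), purple points give the median log2 fold change (x axis) of the collagens and black bars that of all probes tested. For Elbe against Danube the point lies right of the bar in every row, by 0.24 in the reported setting, and for Rhine against Danube the 2 coincide with the image-number range as a block.

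Among the col genes, col-124 had the lowest unadjusted p of the family. Its log2 ratios were -0.27, -1.29, -0.68, -1.46 and -0.63 on the 5 Danube arrays. On the Elbe arrays they were 0.02, 0.00, 0.44, 0.55 and 0.06, and on the Rhine arrays -0.10, -0.49, 0.69, -0.30 and -0.40. All 5 Elbe arrays lay above all 5 Danube arrays, while the Rhine arrays overlapped the Danube arrays. Elbe exceeded Danube by 1.08 ± 0.29 (SE) on the log2 scale, a fold of 2.12, with a limma adjusted p of 0.523 and an exact two-sided permutation p of 0.00794, the smallest that 5 arrays against 5 can give. For Rhine against Danube it was 0.75 ± 0.29, with a limma adjusted p of 0.346. With the image-number range as a block the values were 0.84 for Elbe and 0.51 for Rhine. The 3 collagens whose log2 ratios over the 15 arrays were most like those of col-124 were sqt-2 with a Pearson correlation of 0.78, col-20 with 0.70 and col-119 with 0.66, picked as the highest of 61. With array medians and sediment means taken out, the same correlations were 0.43, 0.33 and 0.22. The 15 points share the reference pool and, within a sediment, the array.

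For col-129 the Danube arrays read -1.20, -0.69, -2.38, -1.53 and -0.28. The Elbe arrays read -0.75, -0.16, 0.15, 0.04 and -0.03, and the Rhine arrays -0.34, 0.08, 0.10, 0.33 and -0.08. Danube replicate 5, the one Danube array of the second range, was the highest Danube value, and it alone kept the Rhine arrays from lying wholly above the Danube arrays. Against Danube the log2 fold change was 1.07 ± 0.34 (SE) for Elbe and 1.23 ± 0.34 for Rhine, with limma adjusted p of 0.639 and 0.34. With the image-number range as a block these values were 0.13 and 0.30.

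The transcript of col-119 gave 0.09, -1.24, -0.51, -0.45 and -0.17 on Danube arrays. It gave 0.21, -0.12, 0.32, 0.26 and 0.10 on Elbe arrays and 0.48, 0.59, 0.15, 0.15 and 0.32 on Rhine arrays. The Rhine arrays all lay above the Danube arrays, and Elbe replicate 2 fell within the Danube range. Its log2 fold change was 0.61 ± 0.25 (SE) for Elbe and 0.80 ± 0.25 for Rhine against Danube, with limma adjusted p of 0.786 and 0.34. Without Danube replicate 2 the Elbe value was 0.42 and no longer past the thresholds.

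The log2 ratios of col-122 lay between -0.73 and -0.09 on Danube arrays and between 0.11 and 0.56 on Elbe arrays. These 2 groups did not overlap. On Rhine arrays they spread from -0.42 to 0.87 and overlapped both. Its log2 fold changes against Danube were 0.68 ± 0.27 (SE) for Elbe and 0.65 ± 0.27 for Rhine, with limma adjusted p of 0.786 and 0.358. With the image-number range as a block these values were 1.07 and 1.04.

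**Figure D5:**
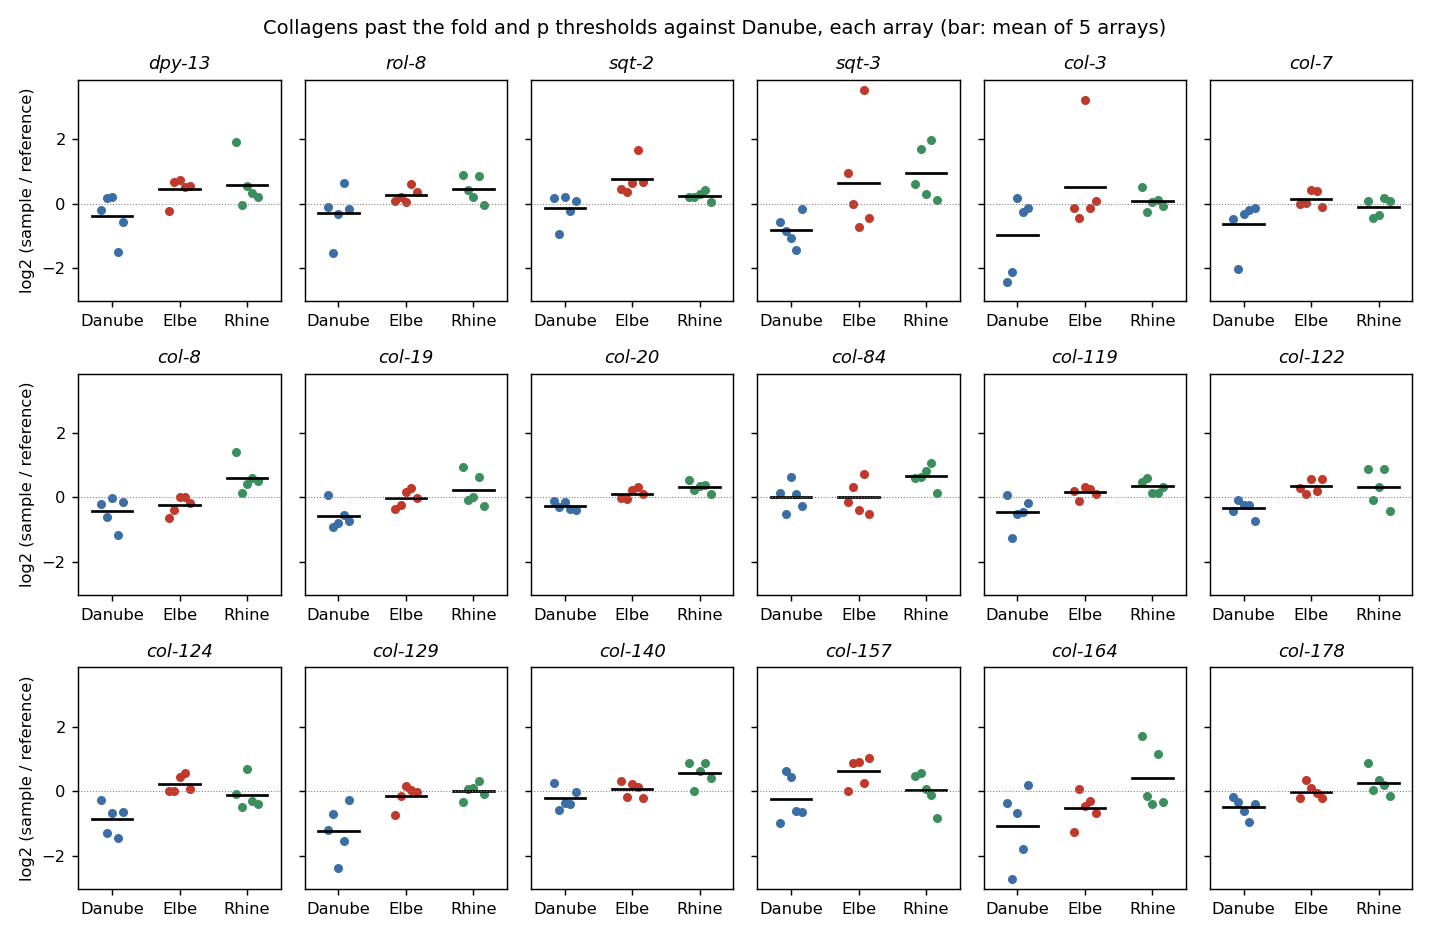
Each panel shows 1 of the 18 collagens past the thresholds in Elbe or Rhine against Danube, with the log2 ratio of sample over reference (y axis) on the 5 arrays of each sediment (points) and their mean (bar). All Elbe arrays lie above all Danube arrays in 5 panels, and all Rhine arrays do in 5, with col-20 in both sets. In the other panels Danube overlaps both groups. Single arrays stand far off for sqt-3 (3.52, Elbe replicate 4), col-3 (3.22, Elbe replicate 3) and col-7 (-2.01, Danube replicate 2).

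Of the collagens named for body shape, 7 were in use, bli-2, dpy-13, dpy-14, dpy-17, rol-8, sqt-2 and sqt-3. Mutants of sqt-3 have misshapen bodies, and strong alleles are lethal early in life. On the Danube arrays sqt-3 read -0.58, -0.85, -1.06, -1.42 and -0.18. It read 0.94, -0.02, -0.71, 3.52 and -0.46 on the Elbe arrays and 0.62, 1.68, 0.31, 1.98 and 0.11 on the Rhine arrays. All 5 Rhine arrays lay above all 5 Danube arrays, whereas 2 of the Elbe arrays fell within the Danube range. The Rhine value, 1.76 ± 0.65 (SE) on the log2 scale or 3.38-fold, had a limma adjusted p of 0.34 and an exact permutation p of 0.00794. The Elbe value was 1.47 ± 0.65 with a limma adjusted p of 0.786, and it was 0.75 and not past the thresholds without Elbe replicate 4. The spots of sqt-3 were readable on 3 Danube, 4 Elbe and 3 Rhine arrays, so that part of these ratios rests on spots of the lowest grade.

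A different order was seen for sqt-2, a collagen whose altered forms make worms roll or squat. Its log2 ratios were 0.16, -0.94, 0.22, -0.24 and 0.09 for Danube. They were 0.45, 0.35, 0.65, 1.65 and 0.68 for Elbe and 0.21, 0.21, 0.29, 0.41 and 0.06 for Rhine. All Elbe arrays lay above all Danube arrays, and the Rhine arrays overlapped both. For Elbe against Danube the log2 fold change was 0.90 ± 0.28 (SE), with a limma adjusted p of 0.639, and it stayed past the thresholds whichever array was left out. Against Rhine it was 0.52 ± 0.28, with a limma adjusted p of 0.529.

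The body-shape collagen dpy-13, whose mutants are short and stout, had log2 ratios from -1.51 to 0.22 on Danube arrays, from -0.22 to 0.74 on Elbe arrays and from -0.04 to 1.92 on Rhine arrays. All 3 groups overlapped. Fitted log2 fold changes against Danube were 0.83 ± 0.39 (SE) for Elbe and 0.97 ± 0.39 for Rhine, with limma adjusted p of 0.805 and 0.358, and the Rhine value was 0.63 without Rhine replicate 1. For rol-8, a collagen whose mutants roll, the Rhine value was 0.76 ± 0.34 with a limma adjusted p of 0.371, was 0.45 without Danube replicate 2 and had the opposite sign in the authors' value table. In contrast, dpy-14 and dpy-17, both needed for normal body length, were below the thresholds in all 3 comparisons. Their log2 fold changes ran from -0.40 to 0.28 and from 0.03 to 0.22. The strut collagen bli-2 was the lowest of all 62 in the Elbe comparison, at -0.76 ± 0.42 (SE) with a limma adjusted p of 0.851, and was 0.01 ± 0.42 for Rhine against Danube. Its Elbe arrays lay between -1.38 and -0.32, inside the Danube range of -1.62 to 0.82, and its Rhine arrays between -0.70 and 0.42. All 3 groups of bli-2 thus overlapped.

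The adult collagens served as a check of the stage. Both col-19 and col-7, which are made for the adult cuticle, were readable on all 15 arrays and among the 10 collagens with the highest mean signal, and the dauer collagen col-2 was readable on 1 Danube, 1 Elbe and 0 Rhine arrays. These adult markers were thus readable in all 3 sediments. Of the strut collagens of the adult cuticle, bli-1 missed the limit in Danube and Rhine. The other, bli-2, was in use and lay below 0 for Elbe against Danube, at -0.76, unlike col-19 and col-7. The Danube arrays gave 0.06, -0.93, -0.78, -0.53 and -0.73 for col-19. The Elbe arrays gave -0.35, -0.22, 0.16, 0.28 and -0.02, and the Rhine arrays 0.94, -0.09, 0.01, 0.62 and -0.27. Danube replicate 1 lay within the range of both other sediments, and the other 4 Danube arrays lay below every Elbe and Rhine array. The log2 fold change was 0.55 ± 0.28 (SE) for Elbe and 0.82 ± 0.28 for Rhine against Danube, with limma adjusted p of 0.831 and 0.34. For col-7 the Danube arrays gave -0.49, -2.01, -0.31, -0.21 and -0.14 and the Elbe arrays -0.02, 0.02, 0.42, 0.39 and -0.09. These groups did not overlap, though the highest Danube array, at -0.14, was close to the lowest Elbe array, at -0.09, and Danube replicate 2 lay far below the rest. The log2 fold change of col-7 for Elbe against Danube was 0.78 ± 0.32 with a limma adjusted p of 0.786, and it was 0.43 and not past the thresholds without Danube replicate 2.

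Of the 10 collagens with the highest mean signal, 4 passed the thresholds in a comparison with Danube besides col-7, namely col-19, col-20, col-84 and col-119. For Elbe these were col-7 and col-119, and for Rhine col-19, col-20, col-84 and col-119. In a fit of brighter probes only, with signal above the median, 20.5% of 44 collagens passed for Elbe and 25% for Rhine. Of all probes in that fit, 8.08% and 16.9% passed. The Rhine value of col-84 was past the thresholds in 4 of 15 fits that each left out 1 array. For col-20 the Danube arrays read -0.11, -0.30, -0.13, -0.36 and -0.40. The Elbe arrays read -0.01, -0.05, 0.22, 0.31 and 0.10, and the Rhine arrays 0.53, 0.22, 0.36, 0.38 and 0.12. Both Elbe and Rhine lay wholly above Danube, with SDs of 0.13, 0.15 and 0.16 for Danube, Elbe and Rhine. The shift of col-20 was 0.37 ± 0.19 (SE) for Elbe and 0.58 ± 0.19 for Rhine, with limma adjusted p of 0.832 and 0.34. Its Rhine value had the opposite sign in the authors' value table. The remaining 5, col-62, col-143, col-13, col-120 and col-125, had log2 fold changes between -0.44 and 0.30 in the comparisons with Danube. Among them col-13, read from 4 spots, was -0.12 ± 0.20 for Elbe and 0.01 ± 0.20 for Rhine, and col-120 was 0.02 ± 0.20 and 0.01 ± 0.20.

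Further col genes past the thresholds in the Rhine comparison were col-8, col-19, col-20, col-84, col-140, col-164 and col-178. The lowest unadjusted p among them was that of col-8, with Danube arrays at -0.19, -0.60, -0.03, -1.15 and -0.14. Its Elbe arrays were at -0.65, -0.40, 0.02, 0.00 and -0.16 and its Rhine arrays at 1.41, 0.13, 0.42, 0.60 and 0.50. The Rhine arrays lay above all Danube and all Elbe arrays, while Danube and Elbe overlapped widely. For col-8 the log2 fold change was 1.03 ± 0.29 (SE) for Rhine against Danube, with a limma adjusted p of 0.34 and an exact permutation p of 0.00794. For Elbe against Danube it was 0.18 ± 0.29. For col-178 the value was 0.76 ± 0.24, with no overlap between Rhine and Danube, and for col-140 it was 0.77 ± 0.24, with Danube replicate 1 inside the Rhine range. The largest of these, col-164 at 1.46 ± 0.54, had SDs of 1.17 on Danube and 0.97 on Rhine arrays, and its highest Rhine arrays were replicates 1 and 4, at 1.71 and 1.16.

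Elbe and Rhine, whose arrays all lie in 1 image-number range, split the collagens in both directions. The log2 fold change of Elbe against Rhine was above 0 for 28 and below 0 for 34 of the 62, with a median of -0.06 beside -0.17 for all probes. In this comparison 5 collagens passed the thresholds, beside 10.6% of all probes. Of these, 3 were higher and 2 lower in Elbe, or 4.84% and 3.23%, beside 2.52% and 8.06% of all probes. This count was 1 without Elbe replicate 3 (1.61% beside 8.58% of all probes) and 2 without Elbe replicate 1 (3.23% beside 7.97%). It was 3, or 4.84%, without Danube replicate 1, Rhine replicate 1 or Rhine replicate 3, beside 10.3%, 8.89% and 10.3% of all probes. None had a limma adjusted p under 0.05, as for all probes (0%), and the lowest was 0.325 for col-8. Besides col-8, at -0.85 ± 0.29 (SE), the arrays of the groups did not overlap for col-10, and such a gap with Elbe above Rhine was seen for 0.797% of all probes and with Elbe below Rhine for 2.67%. Rhine arrays gave -0.04, -0.04, 0.05, -0.50 and -0.09 for col-10 and Elbe arrays 0.50, 0.21, 0.50, 0.48 and 0.27. For col-10 the difference was 0.51 ± 0.20, a fold of 1.43, with a limma adjusted p of 0.409 and an exact permutation p of 0.00794. The sign turned for col-10 and col-80 when the arrays were only centred on their medians, and for col-8 in the authors' value table. Higher in Elbe were also col-80 at 0.59 ± 0.28 and col-104 at 0.90 ± 0.40, with adjusted p by limma of 0.463 and 0.433. Lower was col-84 at -0.64 ± 0.29, with 0.448.

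Groups without overlap were also counted against Danube. In 5 of the 62 collagens every Elbe array lay above every Danube array, namely col-7, col-20, col-122, col-124 and sqt-2, beside 1.32% of all probes. For Rhine there were 5 as well, col-8, col-20, col-119, col-178 and sqt-3, beside 1.83% of all probes. In no collagen did all Elbe or all Rhine arrays lie below all Danube arrays, beside 0.537% and 0.259% of all probes. For single genes named with such a gap the exact permutation p was 0.00794, and with 62 collagens and 3 comparisons these p-values are not adjusted.

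Of the collagens in the study's own gene lists, col-119 and col-129 passed the thresholds in both comparisons with Danube. The listed col-10 and col-80 passed them for Elbe against Rhine only, and the values of these genes are given above. Also listed and in use, col-13 and col-105 were below the thresholds in all 3 comparisons. The study lists col-13 among the genes that were lower in Rhine. For col-13, whose values are given above, the authors' value table had -0.82 ± 0.35 (SE) for Rhine against Danube, past the thresholds, with a limma adjusted p of 0.675. The log2 fold change of col-105 was 0.36 ± 0.37 (SE) for Elbe and 0.68 ± 0.37 for Rhine against Danube, with limma adjusted p of 0.917 and 0.441. The listed sequence F54D1.2, which the study names col-127, is col-126 in the RefSeq table, while col-127 there is the neighbouring F54D1.3. The gene col-126 was added here for its place in that list, after its values were seen. Its spot was readable on 2 arrays of each sediment and left out by the filter, and its log2 fold changes in the fit over all probes were 0.63 ± 0.49 for Elbe and 1.20 ± 0.49 for Rhine, with limma adjusted p of 0.961 and 0.73. The probe of col-127 itself was in use, at -0.42 ± 0.28 and -0.48 ± 0.28, with 0.873 and 0.458. Left out by the filter in the same way were col-38, col-144 and col-161. For col-161 the Danube arrays spread from -1.99 to 0.90 and the Elbe arrays from -0.12 to 0.35, with a log2 fold change of 0.96 ± 0.50 and a limma adjusted p of 0.961. For col-38 and col-144 the Elbe values were 0.59 ± 0.42 and 0.27 ± 0.39. In the authors' value table col-38, col-161 and col-126 were past the thresholds as higher in Elbe than Danube. Their values there were 0.78 ± 0.36, 1.00 ± 0.47 and 1.11 ± 0.50, each with a limma adjusted p of 0.806. There col-144 was 0.62 ± 0.46 and not past the thresholds. The listed sequence F41E7.5 is now named fipr-21 in the RefSeq table and is no member of the family; its log2 fold change was -0.10 ± 0.21 for Elbe and -0.05 ± 0.21 for Rhine against Danube. A gene the study picked on these samples is not independent evidence of its direction.

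For 2 other col genes past the thresholds in the Elbe comparison, single arrays weighed heavily. The transcript of col-3, read from 2 spots, gave -2.42, -2.12, 0.16, -0.26 and -0.14 on Danube arrays and -0.13, -0.43, 3.22, -0.15 and 0.09 on Elbe arrays. Its log2 fold change was 1.48 ± 0.65 (SE), and 0.80 without Elbe replicate 3, with the groups overlapping. For col-157 the value was 0.85 ± 0.36, and it was past the thresholds in 9 of 15 fits that each left out 1 array. Of the 9 collagens past the thresholds in the Elbe comparison, 3 were so in all 15 such fits (col-124, col-129 and sqt-2), and in the Rhine comparison 9 of 14 were. Fits that left out an array of the sediment not compared could move the p but not the fold change. The share of all probes past the thresholds in every fit was not computed.

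Within one sediment the collagens were only weakly correlated with each other. With sediment means removed, the median Pearson correlation between 2 collagens over the 15 arrays was 0.068, beside 0.044 for pairs of all probes in use, and it was 0.022 and -0.001 once each array was centred. Neighbouring collagen genes, side by side in the annotation, were in use as 5 pairs. With each array centred and sediment means removed, their correlations over the 15 arrays were 0.39 for col-145 and col-10 and 0.19 for col-7 and col-62. They were 0.01 for col-104 and col-105, -0.07 for col-39 and col-80 and -0.08 for col-20 and col-73. With the sediment differences left in and the arrays not centred, the same pairs had 0.15, 0.42, 0.03, -0.16 and 0.34. The median SD over arrays of one sediment was 0.50 for collagens in Danube, 0.35 in Elbe and 0.48 in Rhine, beside 0.57, 0.42 and 0.57 for all probes. Collagen genes resemble each other in their repeats, and whether a probe also bound the transcript of a related collagen was not tested.

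The enzymes that process and cross-link collagen showed no member past the thresholds in the 6 probes, for 5 of 16 genes, that were in use. Their median log2 fold change was 0.14 for Elbe and 0.38 for Rhine against Danube. The highest was phy-3, a prolyl 4-hydroxylase subunit, at 1.12 ± 0.59 (SE) for Rhine with a limma adjusted p of 0.426. The protein disulfide isomerase pdi-2, a partner of the hydroxylase, was 0.24 ± 0.36 for Elbe and 0.58 ± 0.36 for Rhine, and both probes of bli-4, the protease that trims collagen precursors, read below 0 in the Elbe comparison, at -0.25 ± 0.40 and -0.26 ± 0.28. Of 9 cuticlins and zona pellucida proteins in use, of 36 on the array, cutl-23 was past the thresholds as higher in Rhine than Danube, at 1.46 ± 0.57, and cut-1, a cuticlin known from the dauer cuticle, as lower, at -1.31 ± 0.49, with limma adjusted p of 0.348 and 0.34. Against Rhine, cut-1 was higher in Elbe by 1.16 ± 0.49.

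Regulators of the epidermis and of molting were mostly dim. Of 11, 2 were in use, lin-42, which keeps developmental time, and myrf-1, which drives larval molts. Their log2 fold changes were -0.27 ± 0.22 (SE) and -0.02 ± 0.47 for Elbe against Danube and -0.16 ± 0.22 and -0.59 ± 0.47 for Rhine. Of 7 molting enzymes and inhibitors, mlt-11 alone was in use, at -0.49 ± 0.45 and 0.37 ± 0.45. The basement membrane collagens emb-9 and cle-1, which are not part of the cuticle, were 0.19 ± 0.35 and 0.14 ± 0.28 for Elbe and 0.12 ± 0.35 and -0.01 ± 0.28 for Rhine. None of these passed the thresholds. Of 6 genes known to respond to the loss of furrow collagens, 3 were in use, with medians of 0.12 for Elbe and -0.22 for Rhine and none past the thresholds.

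The mean log2 ratios of markers of other tissues were also lowest on Danube arrays. The mean log2 ratio of the 62 collagens ran from -0.43 to -0.02 on Danube arrays, from 0.05 to 0.27 on Elbe arrays and from 0.01 to 0.46 on Rhine arrays. For the 3 body wall muscle markers it ran from -2.35 to 0.28 on Danube, from -0.33 to -0.04 on Elbe and from -0.03 to 0.88 on Rhine arrays, and all 3 had log2 fold changes above 0 in both comparisons. For the 2 pharynx myosins it ran from -3.15 to -0.23, from -0.48 to 0.05 and from -0.31 to 1.01. The 7 intestine and yolk markers in use, of 8, ranged from -1.21 to 0.01, from -0.50 to 0.35 and from -0.48 to 0.35, and 5 of 7 were above 0 in the Rhine comparison and 3 of 7 in the Elbe comparison. Sperm markers (10 of 28 in use) were above 0 in 9 of 10 for Elbe and 7 of 10 for Rhine. The 3 germline and 2 neuron markers in use were above 0 in both. These tallies stand beside 57.1% of all probes above 0 for Elbe and 69.9% for Rhine. Of the epidermis markers that are no collagens, wrt-2 alone was in use, at 0.35 ± 0.44 (SE) and 0.54 ± 0.44. The part of these tissues, or of the stage of the worms, in the collagen values was not tested.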

How the data were processed

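The 15 arrays are 70-mer oligonucleotide arrays hybridised with 2 dyes. The authors deposited spot intensities of both channels as written by BlueFuse, not normalized and without a separate background, and per the file headers a confidence score for each spot, whose lowest grade stands for a score under 0.05. The authors also deposited a table of linear ratios made by print-tip Lowess and per-chip and per-gene scaling in GeneSpring. Its 18653 rows carry no probe name, and 18011 were matched to 1 probe by following the Cy5 signal after loess over the 15 arrays (1 minus the correlation under 0.001), which fixes its direction; the Cy3 reference is not divided out there. Its column medians were 0.998 to 1, its row centring was not examined, and 153 collagens were matched.

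Here the log2 ratio of Cy5 to Cy3 was corrected on every array by a loess curve for each of its 48 print-tip blocks (limma 3.58.1, R 4.3.3), control and empty spots having weight 0. Spots of 1 probe were averaged. The 187 gene spots that carry no protein identifier were kept. The spot filter kept 5398 of 19264 probes. Of all gene probes, 18230 were named through locus tags of the RefSeq gene table (WBcel235). The 3 comparisons came from 1 limma fit (lmFit, eBayes) that held all 15 arrays, and p-values were adjusted after Benjamini and Hochberg over all probes in use. The procedure was tested on simulated data. For single genes an exact permutation p, two-sided and without adjustment, compared the means over all 252 splits of 2 sediments' arrays.

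The members, the gene lists, the tests and the alternatives were chosen with earlier results of these data known. The genes named are all collagens with a body-shape name, for each comparison the 10 col probes with the lowest unadjusted p, the 10 collagens with the highest mean signal, stage markers, collagens in the study's lists, members with several spots, and up to 3 genes of each other list with the lowest unadjusted p. Alternatives were other normalizations, filters, weights and blocks, the authors' value table, the methods' t-test and leaving out each array in turn; 3 more were added after seeing the data, namely spots without a protein identifier left out, the 2 widest arrays left out, and brighter probes only. The number of arrays limits the precision. No probe, promoter or protein sequence was used here.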

Additional observations from a re-analysis of the deposited data

Results flagged for a closer look

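Among the 36 named collagens in use, a single array stood far from the other 4 of its sediment in 8 of 108 sets of 5 arrays, or 7.41%. The limit used, Dixon's critical value, marks about 1 in 20 sets of independent and normally distributed values. These sets share the same arrays, and many of the genes were picked for a low p, so that 7.41% was not tested against chance. The share over all probes was not computed. The widest gap was that of col-3, at 3.22 on Elbe replicate 3 with the others between -0.43 and 0.09. For col-7 Danube replicate 2 read -2.01 and the others -0.49 to -0.14. Elbe replicate 4 stood apart for sqt-2, at 1.65 beside 0.35 to 0.68, and for col-13, at -0.62 beside -0.10 to 0.09. Rhine replicate 4 stood apart for col-62, at -1.35 beside -0.26 to 0.03, and for col-10, at -0.50 beside -0.09 to 0.05. For dpy-13 Elbe replicate 1 read -0.22 and the others 0.51 to 0.74. For col-127 Danube replicate 3 read 1.36 and the others 0.01 to 0.39.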

How the results depend on the processing

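The counts past the fold and p thresholds were 9 for Elbe against Danube, 14 for Rhine against Danube and 5 for Elbe against Rhine. With arrays only centred on their medians they were 5, 28 and 9, or 8.06%, 45.2% and 14.5% of the collagens beside 4.95%, 33.8% and 14% of all probes, and the collagen medians were 0.59, 0.92 and -0.53. With a confidence score of at least 0.5, which left 13 collagens, the counts were 5, 7 and 3, or 38.5%, 53.8% and 23.1% beside 9.84%, 16.5% and 12.5%. With the image-number range as a block the counts against Danube were 2 and 2, or 3.23% beside 1.82% and 2.2% of all probes, and the medians 0.11 and 0.17. Array weights gave medians of 0.15 and 0.23 against Danube. For Rhine against Danube the median was 0.26 with no spot filter, 0.17 without the 2 widest arrays and 0.02 in the authors' value table. In that table the count for Elbe against Rhine was 11 (10 higher and 1 lower) and its median 0.22, over 153 collagens, and the share was 7.19% beside 7.17% of all probes. Apart from the construction of these settings, the cause was not tested. Leaving out 1 array gave counts of 4 (without Elbe replicate 3) to 12, 12 to 16, and 1 (without Elbe replicate 3) to 7. Without Elbe replicate 3 the shares were 6.45% beside 5.52% of all probes for Elbe against Danube and 1.61% beside 8.58% for Elbe against Rhine. At the highest counts they were 19.4% beside 7.06% for Elbe against Danube (without Rhine replicate 1) and 11.3% beside 12.5% for Elbe against Rhine (without Danube replicate 2). For Rhine against Danube they ran from 19.4% to 25.8%, beside 8.89% to 14% of all probes. Signs were checked for the collagens past the thresholds. In the value table the sign turned for col-20 (-0.09) and rol-8 (-0.63) in Rhine against Danube and for col-8 (0.35) in Elbe against Rhine. Under median centring it turned for col-80 (-0.18) and col-10 (-0.39) in Elbe against Rhine. Of all 59 matched collagens in use, past the thresholds or not, the value table kept the sign in 45 for Elbe against Danube. It kept the sign in 39 for Rhine against Danube and in 34 for Elbe against Rhine. Of 5277 values of single collagens under all alternatives, 0 had a limma adjusted p under 0.05.

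The same replicate numbers do not pair the samples, since 2 of 15 same-numbered pairs had deviations correlated above 0.1 (-0.043 to 0.124). With the replicate number as a block, the counts were 10, 16 and 4. These are 16.1%, 25.8% and 6.45% of the collagens beside 6.26%, 12.9% and 10.9% of all probes. Spots of the lowest grade limit what can be said of the 99 collagens left out.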
